A study of Danio rerio with 18 samples.

Results

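The actin cytoskeleton was examined in the zebrafish NMLF (nucleus of the medial longitudinal fascicle) through 39 genes, of 8793 genes that had a single symbol on the array. They were chosen by symbol alone: the cytoplasmic beta-actins, the thymosins and profilins that bind actin monomers, the Arp2/3 complex, capping and severing proteins, cross-linking and adhesion proteins, tropomyosins and non-muscle myosin II. Each gene is represented by its probe set with the highest mean signal over the 18 arrays, and tubulins were not included. The NMLF is a midbrain cell group with axons that descend into the spinal cord and regrow after they are cut. Its tissue was cut from the brain with a laser after the spinal cord had been transected or after a sham operation. The 6 groups, with 3 arrays each, were transected fish and sham fish, taken 4 h, 12 h or 11 d after surgery, times meant to separate early events from regrowth. All fish were kept under one light cycle. Strain, age and sex, and which animals or pools of animals gave each sample, are not given in the sources used here, so the spread behind each p-value is that of the samples and may be technical. If an animal gave more than 1 sample of a group, the p-values are too small.

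Actin exists as single molecules (monomers) and as filaments. Beta-thymosins hold monomers in reserve, profilins pass them to growing filament ends, the Arp2/3 complex starts branches, capping protein closes filament ends, and cofilins and gelsolins cut filaments. In a growing axon these proteins act in the growth cone at its tip. Tropomyosins run along filaments and control which other proteins bind, alpha-actinins, filamins and fascins join filaments into networks and bundles, and non-muscle myosin II pulls on them. The captured tissue holds neurons, glia and vessels, all of which use actin, and in such tissue fewer cells of one type and less RNA per cell cannot be told apart.

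Signals are array intensities that were put on one scale (quantile normalized), with values below 16 set to 16, called the floor. Of the 39 genes, 31 were above the floor on all 18 arrays and 5 on some of them. The gelsolin gene gsnb, the alpha-actinin gene actn2b and the fascin gene fscn2b were at the floor on all 18, so they carry no measured level here. Neuron and glia markers were bright on every array: the summed signal of 14 neuron markers lay between 17569 and 30544 and that of 13 glial markers between 30241 and 48588. For GAPDH, a control gene with probe sets at both ends of its transcript, signal at the 3' end over signal at the 5' end, a ratio that grows as RNA is shortened, was 3.15 to 5.40 on the 6 arrays at 12 h and 1.39 to 2.88 on the other 12 arrays. Within a time, its ranges in transected and sham arrays overlapped at 12 h and 11 d. Its range at 4 h was 1.73 to 2.04 in transected and 1.53 to 1.78 in sham arrays, which overlap narrowly.

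The first question was whether the actin genes differed between transected and sham fish at each time. No member passed the threshold, an adjusted p of 0.05 in limma's test over all 15502 probe sets, at 4 h, 12 h or 11 d. Over all probe sets the share called was 0% at 4 h, 0.0258% at 12 h and 0.0452% at 11 d, so few calls were to be had anywhere on the array. At an unadjusted p under 0.05 there were 4 members higher at 4 h and 0 lower, against 1.41% and 0.858% of all probe sets. The 4 were flna (filamin A), actn1 (alpha-actinin 1), tpm4a (a tropomyosin) and tmsb (a beta-thymosin). There were 0 such members at 12 h, against 4.61% of all probe sets. At 11 d there were 2 higher, tmsb and actb1 (2.23% of all), and 1 lower, tpm4a (2.19% of all).

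As a group the members showed no common direction. The median log2 difference (transected minus sham) over the 39 was 0.01 at 4 h and 0 at 12 h and 11 d, and the median over all probe sets was 0 at each time. At 4 h 20 members were higher and 16 lower, at 12 h 18 and 18, and at 11 d 19 and 16. Differences were small: 33 of 39 at 4 h, 36 at 12 h and 35 at 11 d were within 0.5 on the log2 scale. These counts include the 3 members at the floor on all arrays, which could not differ. Transected and sham arrays did not overlap for 3 members at 4 h, all higher (2.67% of all probe sets), and for none lower (1.88%). At 12 h this held for 2 members higher (4.57%) and 1 lower (4.72%), and at 11 d for 2 higher (2.73%) and 2 lower (2.99%). Counts of 0 to 3 among 39 members are too few to be read as a departure from those shares.

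**Figure D1:**
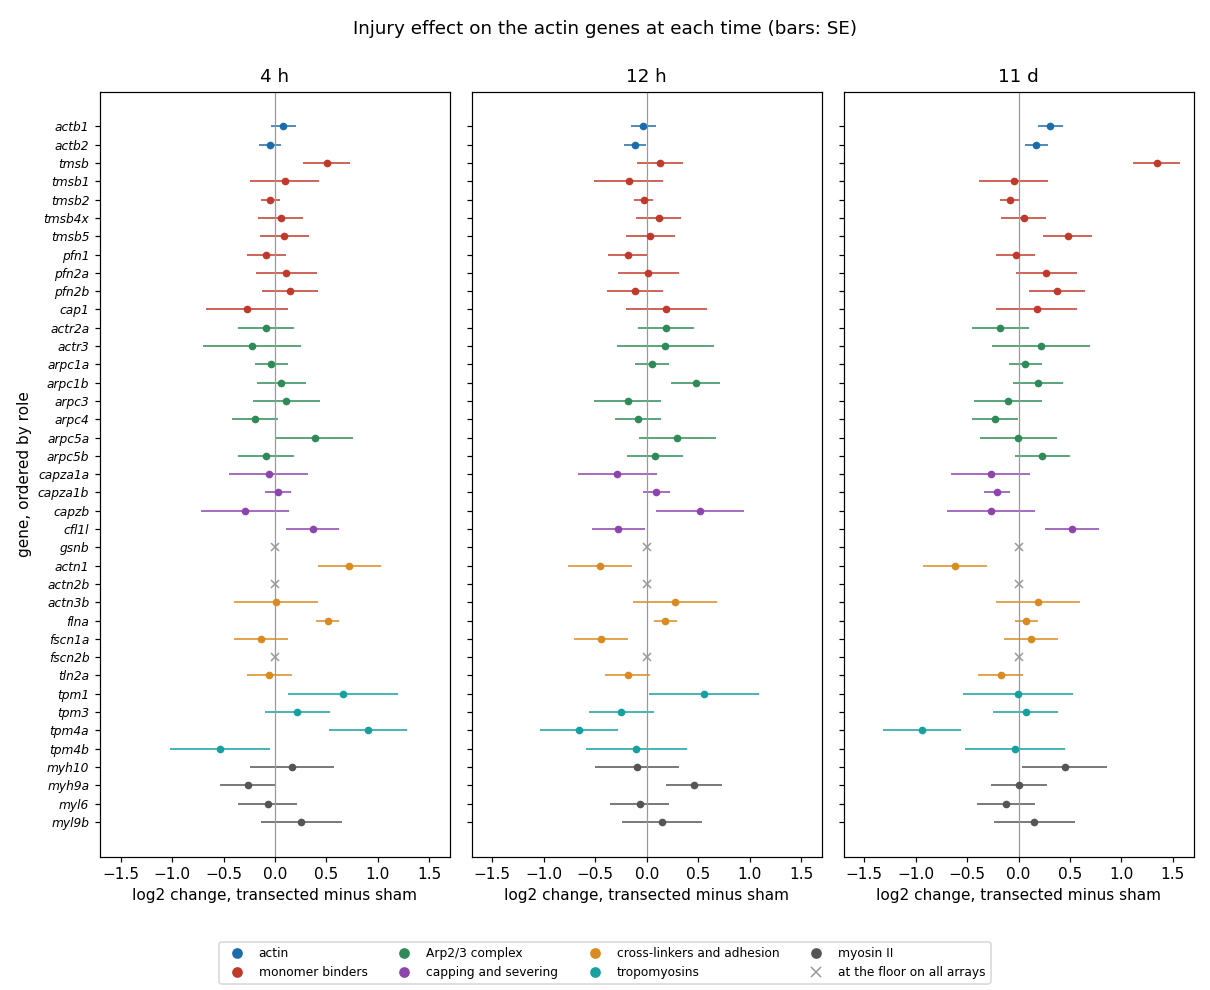
Injury effect on each of the 39 actin genes at 4 h, 12 h and 11 d, as the log2 difference of transected minus sham signal (horizontal axis), with bars for 1 SE of the fit and 3 arrays per group. Genes run down the page by role, and crosses mark the 3 genes at the floor on all arrays. Most points lie within 0.5 of 0, and tmsb at 11 d, at 1.34, lies farthest from it.

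Averaged over the 3 times, 0 members passed, against 0.0387% of all probe sets. At an unadjusted p under 0.05 there were 2 members higher (2.14% of all probe sets) and 0 lower (1.86%): tmsb with a log2 difference of 0.66 and flna with 0.26. In the F test of whether the injury effect differed between times, 0 members passed (0.0516% of all probe sets) and 4 had an unadjusted p under 0.05 (3.57% of all): tmsb, tpm4a, actn1 and flna. With arrays weighted by their quality, tmsb was the 1 member to pass in each of these tests, among 0.471% of all probe sets for the average and 0.806% for the F test. The 4 genes, together with actb1, arpc1b, fscn1a and tmsb2, are given below with the value of every array.

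The actins themselves differed little. The signal of actb1, which makes the beta-actin of non-muscle cells, was 5616, 5345 and 4655 in transected fish at 11 d, against 4271, 4404 and 3901 in sham fish. All 3 transected arrays were above all 3 sham arrays, but the gap was narrow. The log2 difference was 0.31 ± 0.12 (SE, n = 3 arrays per group), with a limma unadjusted p of 0.026 and an adjusted p of 0.93. At 4 h actb1 read 3765, 4404 and 4856 in transected fish and 3887, 4132 and 4242 in sham fish, and at 12 h 2851, 3237 and 4093 in transected fish and 3456, 3573 and 3282 in sham fish. At both early times the groups overlapped, with log2 differences of 0.08 ± 0.12 and -0.03 ± 0.12. Its close relative actb2 had log2 differences of -0.05 at 4 h, -0.12 at 12 h and 0.17 at 11 d, each with an SE of 0.11, and its groups overlapped at every time.

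Among the monomer binders, tmsb was the member with the smallest p at 11 d. The gene encodes a beta-thymosin that in zebrafish embryos is needed for the formation of axon tracts in the brain. At 11 d its signal was 6186, 5939 and 5398 in transected fish, against 1814, 3252 and 2068 in sham fish. The 3 transected arrays were close together and all above the highest sham array, which was replicate 2. The log2 difference was 1.34 ± 0.23 (SE, n = 3 arrays per group), a 2.53-fold higher level with a 95% interval from 0.85 to 1.83 on the log2 scale. The adjusted p was 0.074, which did not pass over the whole array. An exact two-sided permutation test of the 6 arrays gave 0.1, the smallest p that 3 against 3 arrays allow.

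The tmsb call at 11 d depended on which probe sets and arrays entered. With the dimmest 33.3% of probe sets left out, its adjusted p was 0.039, and 0.019 when same-numbered arrays were also treated as pairs, where 0.145% and 0.416% of all probe sets passed. With the dimmest probe sets out and each 11 d array left out in turn, a set of fits added after the data were seen, it passed only without sham replicate 2 (1.59, adjusted p = 0.016), and the other adjusted p-values were 0.073 to 0.26. With arrays weighted by their quality, 5 members passed at 11 d, among 8.02% of all probe sets: tmsb, tmsb5, actb1 and actb2 were higher and actn1 lower.

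At the earlier times tmsb differed less. The 4 h values were 2577, 1629 and 2074 in transected fish, against 1456, 1290 and 1631 in sham fish, and the groups overlapped only where transected replicate 2 and sham replicate 3 were nearly equal. The log2 difference was 0.50 ± 0.23, with an adjusted p of 1. At 12 h it read 1369, 1178 and 1375 in transected fish and 1230, 925 and 1495 in sham fish, with a difference of 0.13 ± 0.23. The injury effect was larger at 11 d than at 4 h by 0.84 ± 0.32 and larger than at 12 h by 1.21 ± 0.32, and the F test over the 3 times gave an unadjusted p of 0.0071 and an adjusted p of 0.96.

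The beta-thymosins tmsb1, tmsb2 and tmsb4x did not share this difference at 11 d. The log2 difference was -0.05 for tmsb1 (95% interval -0.78 to 0.68), -0.08 for tmsb2 (-0.29 to 0.12) and 0.05 for tmsb4x (-0.43 to 0.52). All 3 intervals end below the lower end of the tmsb interval. No test set one thymosin against another. The gene tmsb5 was above the floor on 8 of 18 arrays, with 33.4, 32.7 and 16 in transected fish and 16, 22.2 and 18.3 in sham fish at 11 d, so the higher values came from transected replicates 1 and 2. Its log2 difference was 0.48 (95% interval -0.04 to 0.99), an interval that overlaps that of tmsb.

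Of the thymosins, tmsb2 was the steadiest. It read 5659, 5659 and 5812 in transected and 6186, 5939 and 5570 in sham fish at 4 h. At 12 h it read 4360, 4907 and 5345 in transected and 4423, 5270 and 5230 in sham fish, and at 11 d 6080, 5484 and 6006 in transected and 7030, 5570 and 6080 in sham fish. The groups overlapped at every time, and the injury differences were between -0.08 and -0.03, each with an SE of 0.09.

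Genes known to respond to nerve injury or to serve axon regrowth were higher beside tmsb at 11 d. All 13 measured genes of such a list, chosen with earlier results of these data known and so not independent evidence, were higher, with a median log2 difference of 0.94. Of these, 9 had an unadjusted p under 0.05, where 2.23% of all probe sets were higher at that p. None was called, where 0.0452% of all probe sets were. The summed signal of the 13 was 14725 to 18249 in transected fish, against 7616 to 9538 in sham fish. The 3 brightest were the tubulin gene tuba8l4 (0.43), gap43 of growth cones (1.28) and stmn2a of microtubule turnover (0.03).

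Markers of immune cells were mostly higher at 11 d too, by a smaller median of 0.28. The summed signal of 17 leukocyte and microglia markers was 10128 to 11658 in transected fish, against 6894 to 8304 in sham fish, with 13 of the 17 higher and 0 called. Of the 17, 3 were higher at a limma unadjusted p under 0.05 and 0 lower, against 2.23% and 2.19% of all probe sets. The brightest were apoc1, an apolipoprotein gene (0.75), cd74a of antigen presentation (0.57) and apoeb of lipid transport in microglia (0.55). The pan-leukocyte marker ptprc and the macrophage receptor gene csf1ra were dimmer, at no more than 69.3 and 57.1 on any array. The other 4 of the 17 markers were lower, among them lcp1 at -0.03. The list holds arpc1b, itself an actin gene. The part of immune cells in the tmsb difference was not tested.

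**Figure D2:**
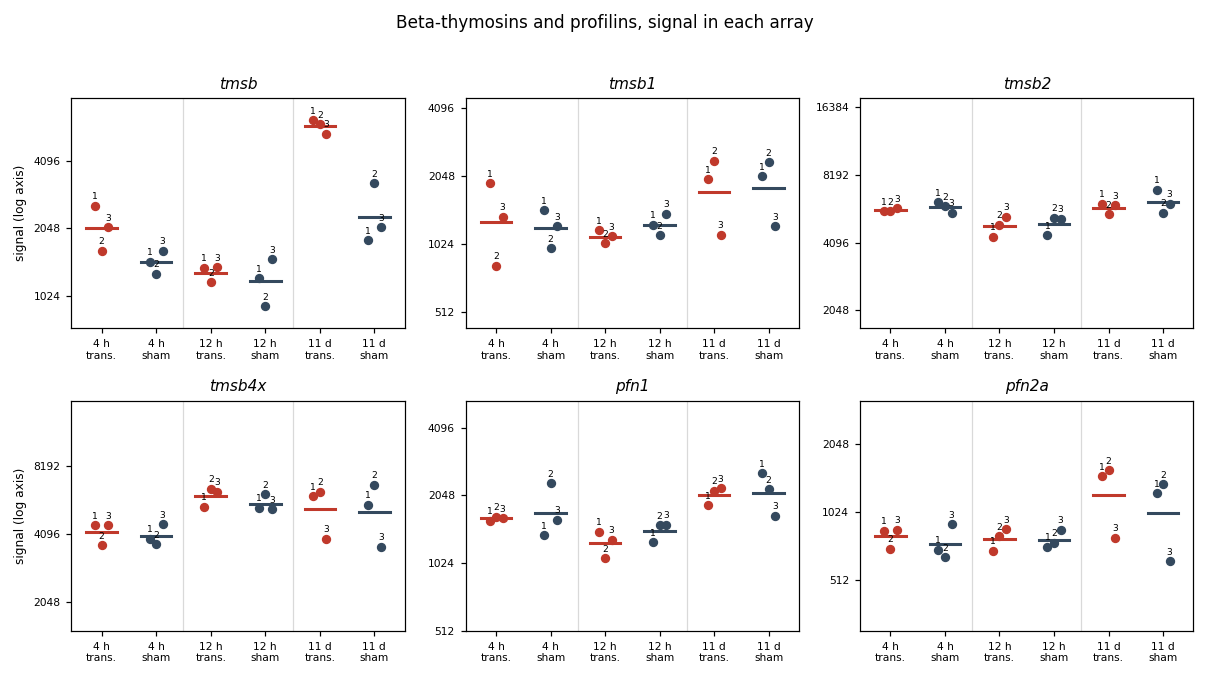
Signal of 4 beta-thymosin and 2 profilin genes on each array (vertical axis, log scale), with transected and sham groups side by side at each time. Each numbered point is 1 array with its replicate number, and horizontal lines are geometric means of 3 arrays. The 3 transected arrays of tmsb at 11 d, at 5398 to 6186, stand above all other arrays of that gene, and the other 5 genes have overlapping groups at 11 d.

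The genes whose pattern over the 18 arrays was most like that of tmsb were picked by Pearson's r among 5850 genes with a mean signal of at least 32. They were ip6k2b (an inositol hexakisphosphate kinase, r = 0.92), nudt9 (an ADP-ribose hydrolase, 0.90), tuba1b (an alpha-tubulin, 0.88), clu (clusterin, 0.88) and panx1b (a pannexin channel, 0.87). These r values describe 18 arrays that share groups, times and processing. At 11 d the log2 differences of these 5 genes were between 0.32 and 1.5, and none passed. As they were picked for their likeness to tmsb on these same arrays, differences in its direction at 11 d are no separate finding. Among the actin genes, flna (0.81), actb1 (0.75) and arpc1b (0.75) had the highest r with tmsb.

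No profilin gene passed the threshold, nor did cap1. Profilin pfn1, the general form, had log2 differences of -0.08, -0.19 and -0.03 at 4 h, 12 h and 11 d, each with an SE of 0.19. The neuronal-type profilins pfn2a and pfn2b were at 0.27 ± 0.30 and 0.37 ± 0.27 at 11 d, with all 3 same-numbered pairs higher for each but overlapping groups. Within those pairs pfn2a differed by 0.25, 0.21 and 0.35. With same-numbered arrays as a replicate block its SE was 0.07, with an unadjusted p of 0.0064 and an adjusted p of 0.37 in limma, against 0.38 and 1 without the block. For cap1, which recycles monomers with cofilin, the difference at 11 d was 0.18 ± 0.40.

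The 8 Arp2/3 subunit genes, actr2a, actr3, arpc1a, arpc1b, arpc3, arpc4, arpc5a and arpc5b, had log2 differences from -0.22 to 0.39 at 4 h, from -0.19 to 0.48 at 12 h and from -0.23 to 0.23 at 11 d. Their medians were -0.06, 0.13 and 0.03, and 3, 6 and 4 of the 8 were higher in transected fish. Thus no common direction held across the complex. The subunit arpc1b gave the largest difference. Its signal at 12 h was 118, 109 and 107 in transected fish, against 74.1, 78.8 and 87.8 in sham fish. The groups did not overlap, with a log2 difference of 0.48 ± 0.24 (SE), an unadjusted p of 0.069 and an adjusted p of 1.

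At the other times arpc1b overlapped between groups. It read 198, 92.5 and 133 in transected and 150, 153 and 93.1 in sham fish at 4 h, and 213, 190 and 214 in transected and 213, 169 and 163 in sham fish at 11 d. The differences were 0.06 ± 0.24 and 0.19 ± 0.24. In mammals arpc1b is the form abundant in blood cells. The summed leukocyte signal at 12 h was 6884 to 7713 in transected and 6816 to 8994 in sham fish, with 8 of 17 markers higher and a median of -0.03. The brightest, apoc1, was at -0.13, and coro1a and apoeb were at 0.26 and 0.28. The marker lcp1 was at -0.29, with all transected arrays below all sham arrays. The part of leukocytes in the arpc1b difference was not tested. For arpc5a, the second probe set went the other way at 4 h, with -0.60 ± 0.39 against 0.39 ± 0.37. One further probe set names both arpc4 and arpc4l and was left out.

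Capping and severing genes showed no difference that passed. The capping protein genes capza1a, capza1b and capzb were at -0.27, -0.21 and -0.27 at 11 d. Of these, capza1b read 458, 433 and 426 in transected fish, against 566, 477 and 480 in sham fish. All 3 transected arrays were below all 3 sham arrays, but the log2 difference of -0.21 ± 0.13 had an unadjusted p of 0.13. The second, dimmer probe set of capza1b was at -0.06 ± 0.28 at 11 d, with 1 of 3 same-numbered pairs higher. The dim cofilin gene cfl1l was above the floor on 13 of 18 arrays, with log2 differences of 0.37, -0.27 and 0.52 at the 3 times, each with an SE of 0.26.

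Among the cross-linking and adhesion genes, flna had the smallest p at 4 h. Filamin A joins filaments into networks and ties them to receptors at the membrane. Its signal at 4 h was 386, 293 and 314 in transected fish, against 226, 228 and 238 in sham fish. The sham arrays were nearly equal and all below the transected ones. The log2 difference was 0.51 ± 0.11 (SE, n = 3 arrays per group) with an unadjusted p of 0.00057, but the adjusted p was 0.98. At 12 h flna read 188, 208 and 241 in transected fish and 175, 196 and 189 in sham fish, a difference of 0.18 ± 0.11. At 11 d it read 350, 433 and 401 in transected fish and 399, 370 and 352 in sham fish, a difference of 0.08 ± 0.11. The groups overlapped at both later times.

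Endothelial markers were mixed at 4 h. Of the 5, 2 were higher and 3 lower, with a median log2 difference of -0.06 and 0 called. Their summed signal was 614 to 758 in transected fish, against 544 to 613 in sham fish, a sum in which kdrl, a receptor of vessel growth factor at 0.35, was the brightest. None of them was at the floor on all arrays. Their part in the flna difference was not tested.

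A second question was how the members varied with time in sham fish. In the F test over the 3 sham groups 1 member passed, flna, against 0.0258% of all probe sets, and 7 had an unadjusted p under 0.05, against 7.05% of all. The 3 sham arrays of flna read 226, 228 and 238 at 4 h, then 175, 196 and 189 at 12 h, then 399, 370 and 352 at 11 d, so the 3 times did not overlap. It was higher at 11 d than at 4 h by 0.69 ± 0.11 on the log2 scale, and the difference of 12 h minus 4 h was -0.31 ± 0.11. The F test had an adjusted p of 0.020. The call was lost with the dimmest 33.3% of probe sets left out (adjusted p = 0.17). It was lost as well without sham replicate 1 at 12 h (0.067), without sham replicate 2 at 12 h (0.083) and without sham replicate 1 at 11 d (0.073).

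The other members with an unadjusted p under 0.05 over the sham groups were arpc1b, tmsb, tmsb2, tpm4a, arpc1a and pfn1, with adjusted p-values from 0.29 to 0.66. In sham fish arpc1b was lower at 12 h than at 4 h, with a log2 difference of -0.69, and higher at 11 d than at 4 h, with 0.48. The subunit arpc1a ran the other way at 12 h, with 0.48. The 12 h arrays are those with the higher GAPDH ratio, and its part in these time differences was not tested.

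**Figure D3:**
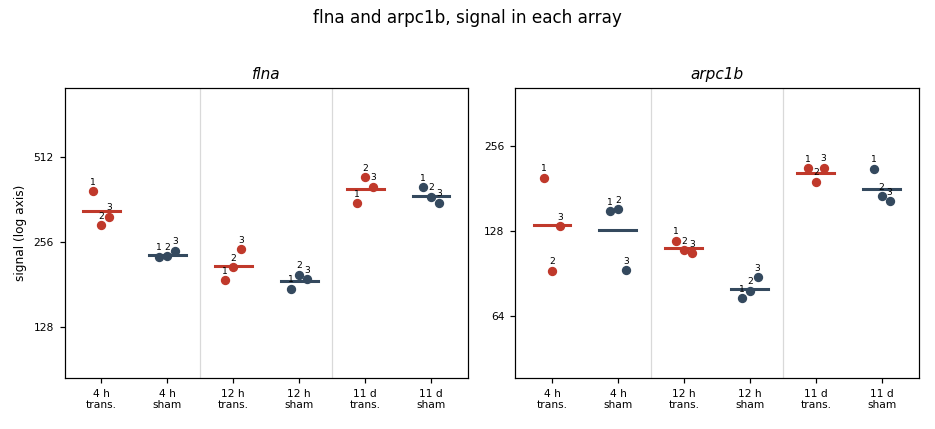
Signal of flna and arpc1b on each array (vertical axis, log scale) at 4 h, 12 h and 11 d, with each transected group left of its sham group. Numbered points are arrays and lines are geometric means of 3 arrays. The sham arrays of flna lie at 226 to 238, 175 to 196 and 352 to 399 at the 3 times, and the transected arrays of arpc1b at 12 h, at 107 to 118, lie above the sham arrays, at 74.1 to 87.8.

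The gene actn1, for an alpha-actinin of stress fibres and adhesion sites, was higher in transected fish at 4 h and lower at 12 h and 11 d. At 4 h it read 161, 121 and 136 in transected fish, against 65.3, 81.8 and 111 in sham fish. No array overlapped, and the log2 difference was 0.72 ± 0.31 with an unadjusted p of 0.037 and an adjusted p of 1. At 12 h it read 63.8, 53.8 and 34.3 in transected and 69.9, 88.2 and 49.4 in sham fish, and at 11 d 71.7, 79.3 and 49.1 in transected and 136, 100 and 74.6 in sham fish. At both times the groups overlapped while all 3 same-numbered pairs were lower, with differences of -0.46 ± 0.31 and -0.62 ± 0.31, the second of them -0.40 without sham replicate 1. In the F test over times actn1 had an unadjusted p of 0.018 and an adjusted p of 1.

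The fascin gene fscn1a, whose protein bundles filaments in growth cone spikes, was lower at 12 h. It read 512, 519 and 408 in transected fish, against 628, 651 and 673 in sham fish, with no overlap. The log2 difference of -0.45 ± 0.26 had an unadjusted p of 0.11. Its 4 h values were 595, 628 and 715 in transected and 550, 774 and 827 in sham fish, and at 11 d 665, 511 and 1022 in transected and 569, 505 and 946 in sham fish. These groups overlapped, and both replicate 3 arrays at 11 d were high. Its second brightest probe set was at -0.49 at 12 h but at -0.46 at 11 d, where the chosen one was at 0.12. The remaining measured genes of this group were the talin gene tln2a, between -0.19 and -0.06 at the 3 times, and actn3b, a muscle alpha-actinin above the floor on 7 of 18 arrays.

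The tropomyosin tpm4a gave the widest swing of any member. At 4 h it read 84.0, 89.7 and 73.7 in transected fish, against 72.8, 22.98 and 50.9 in sham fish. All transected arrays were above all sham arrays, but transected replicate 3 and sham replicate 1 were nearly equal, and the lowest value was that of sham replicate 2. The log2 difference was 0.90 ± 0.38, and 0.43 without that array. At 12 h tpm4a read 36.1, 38.3 and 61.3 in transected and 52.4, 77.8 and 81.1 in sham fish, an overlapping difference of -0.65 ± 0.38.

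At 11 d tpm4a read 61.1, 68.8 and 43.5 in transected fish, against 90.3, 154 and 93.0 in sham fish. All transected arrays were below all sham arrays, with a log2 difference of -0.94 ± 0.38, an unadjusted p of 0.028 and an adjusted p of 0.93. The injury effect at 11 d was below that at 4 h by -1.84 ± 0.54. The F test over times gave an unadjusted p of 0.0098 and an adjusted p of 1.

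Of the other tropomyosins, tpm1 and tpm4b had wider spreads than tpm4a, and tpm3 a narrower one. The muscle-type tpm1 was at 0.66 ± 0.53 at 4 h, 0.56 ± 0.53 at 12 h and -0.01 ± 0.53 at 11 d. The genes tpm3 and tpm4b were at 0.22 ± 0.32 and -0.54 ± 0.49 at 4 h, and at 0.07 ± 0.32 and -0.03 ± 0.49 at 11 d. Their groups overlapped at every time.

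Markers of smooth muscle and pericytes, the contractile cells of vessel walls, were mixed in direction at 4 h and 12 h and mostly lower at 11 d. The genes tpm4a and actn1 were lower at 11 d but also at 12 h (-0.65 and -0.46). Smooth muscle actin, acta2, read 479, 484 and 474 in transected fish at 11 d, against 976, 750 and 828 in sham fish. The transected arrays were nearly equal and all below the sham ones, with a log2 difference of -0.82 and an adjusted p of 0.19. Under 1 of 28 other settings acta2 passed at 11 d (limma adjusted p = 0.00067). Settings differed in how much they called: 0.0452% of all probe sets at 11 d in the fit reported here, against 8.02% with array weights. Transgelin, tagln, was at -0.29 at 11 d, and at 4 h acta2 and tagln were at 0.31 and 0.21. The desmin gene desmb ran opposite to tpm4a and actn1 at both early times. It read 32.5, 44.9 and 52.1 in transected fish, against 69.7, 79.5 and 70.2 in sham fish at 4 h, a difference of -0.79 with a limma unadjusted p of 0.0077. At 12 h the difference of desmb was 0.61 with an unadjusted p of 0.029, and its groups overlapped at neither early time. Of the 6 markers, 1 was higher (desmb) and 1 lower at 12 h at a limma unadjusted p under 0.05, against 4.61% of all probe sets in either direction. The summed signal of 6 smooth muscle and pericyte markers was 1134 to 1584 in transected and 1596 to 2034 in sham fish at 11 d, with 5 of 6 lower and 0 called. At 4 h it was 1742 to 2356 in transected and 1518 to 2241 in sham fish, with 4 of 6 higher. At 12 h the range was 1104 to 1692 in transected and 1443 to 1564 in sham fish, with 4 of 6 lower. The median log2 difference of the 6 was 0.26, -0.09 and -0.24 at 4 h, 12 h and 11 d. None of the 6 was at the floor on all arrays, and their part in the tpm4a and actn1 differences was not tested.

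Markers of red blood cells and of vessel lining were lower at 11 d as well. All 14 erythrocyte markers were lower, with a median log2 difference of -0.46. Of these, 5 had an unadjusted p under 0.05, where 2.19% of all probe sets were lower at that p. The 1 called, where 0.0452% of all probe sets were, was alas2, of haem synthesis in red cells. It was at -2.29 with a limma adjusted p of 0.033. The summed signal of the 14, in which the haemoglobin gene hbaa1 was the brightest, was 7471 to 12532 in transected and 9360 to 16498 in sham fish, so the ranges overlapped. All 5 endothelial markers were lower, with a median of -0.20, 0 called and sums of 379 to 690 in transected and 462 to 648 in sham fish. At 4 h 9 of the 14 erythrocyte markers were lower, with a median of -0.16, where tpm4a and actn1 were higher. None of these markers was at the floor on all arrays. Their part in the tpm4a and actn1 differences was not tested.

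**Figure D4:**
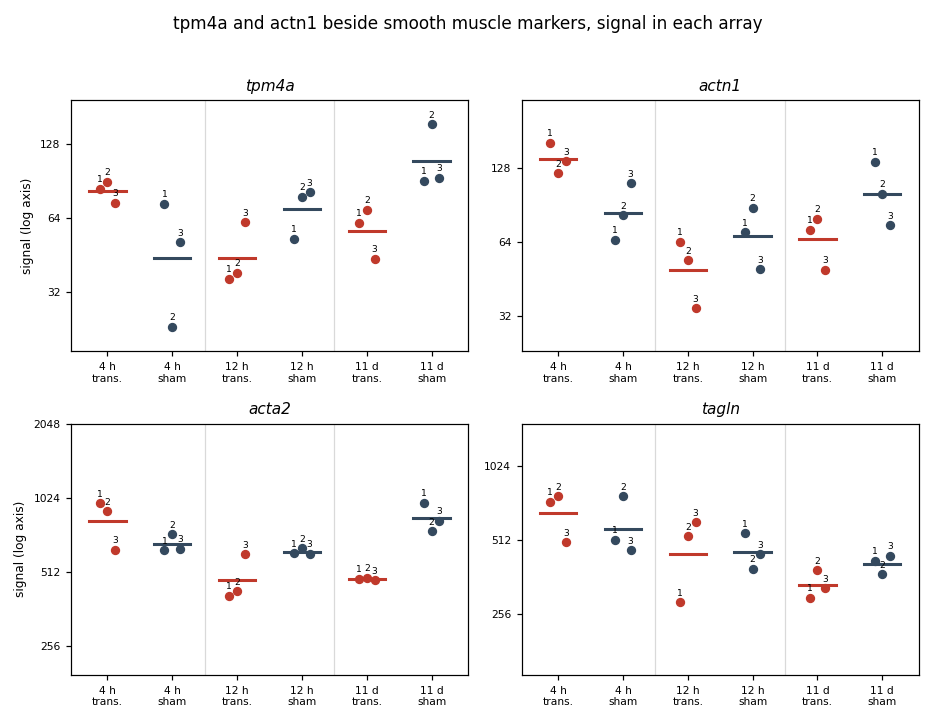
Signal of tpm4a and actn1 beside the smooth muscle markers acta2 and tagln on each array (vertical axis, log scale), with each transected group left of its sham group. Numbered points are arrays and lines are geometric means of 3 arrays. At 11 d the transected arrays of tpm4a (43.5 to 68.8) and acta2 (474 to 484) lie below their sham arrays (90.3 to 154 and 750 to 976).

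Skeletal muscle markers were low: the summed signal of 21 of them lay between 528 and 804 on every array, with a floor of 16 for each, and eno3 was the brightest. No myosin II gene passed the threshold at any time. The heavy chain gene myh10, the main non-muscle form of neurons, was at 0.16 ± 0.41, -0.09 ± 0.41 and 0.45 ± 0.41 at 4 h, 12 h and 11 d. The light chain gene myl6 was at -0.07, -0.07 and -0.12, each with an SE of 0.29, and the dim myl9b at 0.25, 0.15 and 0.15, each with an SE of 0.39. The heavy chain gene myh9a was above the floor on 5 of 18 arrays, among them the 3 transected arrays at 12 h (23.7, 21.8 and 20.5, against the floor of 16 on the 3 sham arrays). These groups did not overlap, with a log2 difference of 0.46 ± 0.27 and a limma unadjusted p of 0.12.

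Some replicates stood apart from the others of their group at 11 d and 4 h. At 11 d both replicate 3 arrays, transected and sham, lay at least 0.5 on the log2 scale from the mean of the other arrays of their group, in the same direction, for 15 of the 39 members. For 5 members they were higher (cap1, actr2a, actr3, capzb and fscn1a) and for 10 lower (tmsb1, tmsb4x, pfn2a, arpc3, cfl1l, actn1, tpm1, myh10, myl6 and myl9b). Such offsets were not counted over all probe sets, so they are not shown to be particular to the actin genes. Thus pfn2a read 784 and 617 on the transected and sham replicate 3 arrays, against 1470 and 1565 on the other transected and 1236 and 1357 on the other sham arrays. The actin nucleator gene actr3 read 1128 and 872 on these replicate 3 arrays, against 351 and 469 on the other transected and 371 and 365 on the other sham arrays. At 4 h sham replicate 2 stood apart in a similar way, with actr3 at 1056 against 461 and 559, and tpm1 at 42.4 against 113 and 92.1. With both replicate 3 arrays at 11 d left out, tmsb was at 1.32 at 11 d, and no member passed at any of the 3 times.

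**Figure D5:**
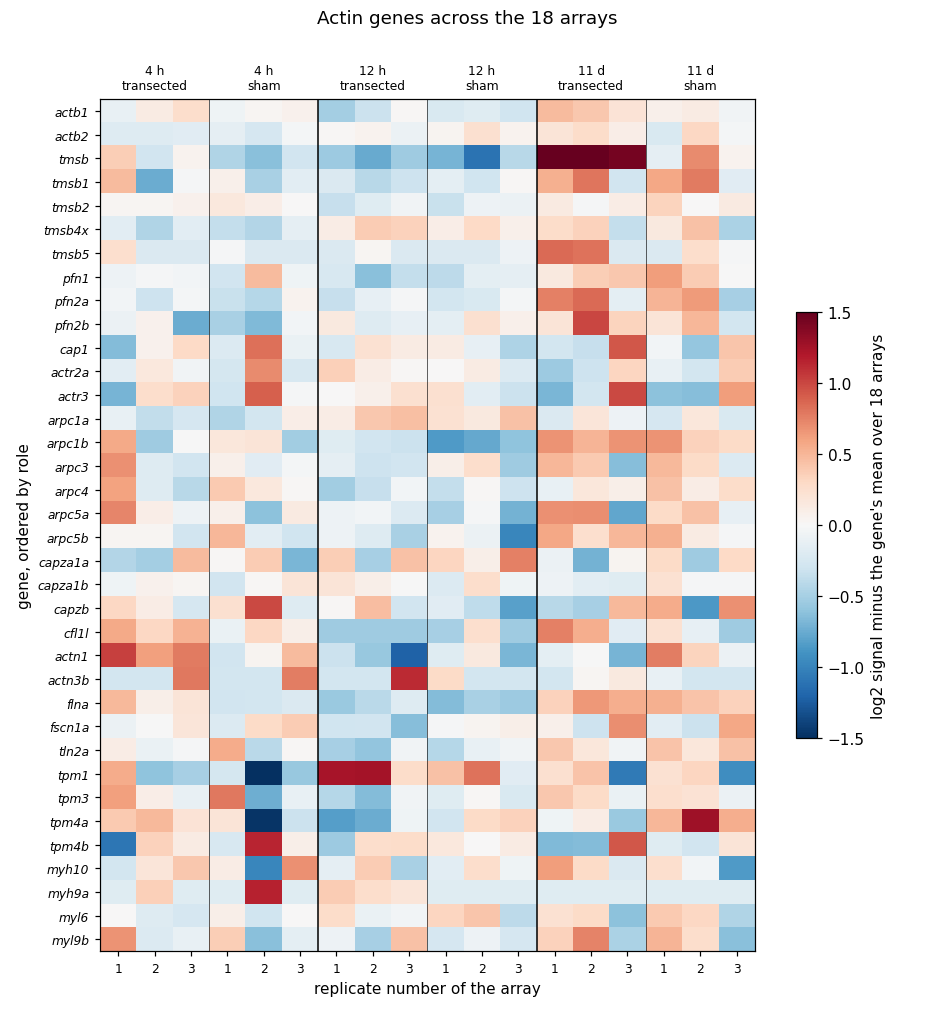
Signal of the 36 actin genes above the floor on at least 1 array, as log2 signal minus the gene's mean over the 18 arrays (colour, blue low and red high, with values beyond 1.5 drawn as 1.5), for each array with transected left of sham at each time. Both replicate 3 arrays at 11 d differ from the mean of replicates 1 and 2 by at least 0.5 in the same direction for 15 genes, and tmsb is red on all 3 transected arrays at 11 d.

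Genes that act on or beside the members were read from 3 further lists, and 0 genes of any of them passed at any time in the fit reported here. Of nucleation promoters and formins, which start new filaments, 15 of 43 were measured, with median log2 differences of 0.07, -0.02 and -0.02 at 4 h, 12 h and 11 d. The adaptor gene nck2b was at 0.54 ± 0.17 and wipf2a, of the WASP-interacting family, at -0.72 ± 0.24 at 12 h, both without overlap. At 11 d wipf2a was at -0.38 ± 0.24, and at -0.16 without sham replicate 2, and the adaptor nck2a was at -0.30 ± 0.18. Of 23 partners of non-muscle myosin 6 were measured, with medians of -0.11, -0.17 and 0.03. The myosin light chain kinase gene mylka was at 0.36, -0.58 and -0.47, each with an SE of 0.31, and ppp1r12a, a subunit of myosin phosphatase, at 0.38 ± 0.74 at 11 d. Single arrays set much of the mylka values: the difference was 0.06 without sham replicate 2 at 4 h, and -0.23 without sham replicate 1 and -0.91 without sham replicate 3 at 12 h.

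Of other actin-binding proteins 40 of 78 were measured, with medians of 0.03, -0.04 and 0. The gene scinla, of the gelsolin family, read 109, 75.0 and 87.2 in transected fish, against 34.1, 30.0 and 59.1 in sham fish at 11 d, a difference of 1.19 ± 0.34. Its 4 h values were 35.7, 25.4 and 20.7 in transected fish, against 55.6, 80.5 and 40.4 in sham fish, a difference of -1.09 ± 0.34. The groups overlapped at neither time, and the adjusted p-values were 0.51 and 1. Under 1 of 28 other settings scinla passed at 11 d (limma adjusted p = 0.0015). With the dimmest 33.3% of probe sets left out its limma adjusted p was 0.33. Settings differed in how much they called at 11 d: 0.0452% of all probe sets in the fit reported here, against 8.02% with array weights. The alpha-catenin gene ctnna2 was at -0.44 ± 0.21 at 11 d, and at -0.20 without transected replicate 2. The gene tes, for a protein of adhesion sites, was at -0.90 ± 0.31 at 12 h, and at -0.38 with a floor of 32. Both had overlapping groups.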

How the data were processed

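RNA of laser-captured NMLF tissue was amplified and labelled with biotin, per the labels' protocols, and hybridised to 18 Affymetrix zebrafish arrays, 1 per sample. The deposited values are 1 intensity per probe set and array with no log taken, as their range shows. They were not all on one scale. The trimmed mean, without 2% of probe sets at each end, was 150.04 on 16 arrays and as low as 92.6 on the others. Those were the replicate 3 arrays at 4 h, transected and sham, and quantile normalization was used for this reason. No program that combined probes and no build is named in the labels. Here the intensities were quantile normalized across the 18 arrays, set to a floor of 16 and turned into log2 values. The 115 control probe sets were left out, which left 15502, and 27.5% to 27.6% of them lay at the floor on each array. Single symbols came from the platform annotation for 10795 probe sets, with several for 135 and none for 4572. All 39 members were found under the same symbol in a RefSeq table. The members have 47 probe sets. The number of arrays limits the precision.

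A model with 6 group means was fitted in R 4.3.3 by lmFit and eBayes of limma 3.58.1 (12 residual and 0.51 prior degrees of freedom), with Benjamini-Hochberg adjustment over the 15502 probe sets and a threshold of 0.05. It was tested on simulated data. Sample titles gave the groups and the replicate numbers. Levels of different probe sets were not tested against each other. Words such as brightest and dimmer, and the summed signals, describe array intensity only.

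All 18 array values are given for members that passed in any contrast, also with the dimmest 33.3% of probe sets left out, and for the 4 members of mean signal at least 32 with the smallest p in each injury contrast and in the sham F test. Values of capza1b, tmsb5, pfn2a, actr3 and myh9a, and of the markers desmb, alas2, coro1a and lcp1, were chosen after they were seen. From each pathway list the 2 genes with the smallest p at 11 d and the 1 at 4 h and 12 h each are named, and from marker lists the brightest. One further list of regulators is not reported here. Members and lists were chosen with earlier results of these data known.

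Same-numbered transected and sham arrays deviated together at 4 h (correlations of 0.64, 0.41 and 0.28) and 11 d (0.25, 0.52 and 0.69), but not at 12 h (0.12, -0.019 and 0.14). Differently numbered arrays gave -0.49 to 0.24 at 4 h. At 11 d replicates 1 and 2 also correlated across numbers (0.36 and 0.25), and replicate 3 with either of them gave -0.59 to -0.32. The 11 d pattern thus set replicate 3 apart and did not separate replicates 1 and 2 by number. The labels state no pairing, so the fit without a block is the one reported. Alternatives were other floors, scalings, probe set filters and eBayes settings, array weights, the replicate block, the second brightest probe set, and each array left out.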

Additional observations from a re-analysis of the deposited data

Results flagged for a closer look

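The tropomyosin gene tpm4a differed in opposite directions at 2 times without overlap of the groups, with log2 differences (transected minus sham) of 0.90 ± 0.38 at 4 h and -0.94 ± 0.38 at 11 d. The test of the difference between these effects gave -1.84 ± 0.54, and the F test over the 3 times an unadjusted p of 0.0098 and an adjusted p of 1.

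The gelsolin-family gene scinla did so the other way round, at -1.09 ± 0.34 at 4 h and 1.19 ± 0.34 at 11 d. The effects differed by 2.27 ± 0.48 (F test, unadjusted p = 0.0011, adjusted p = 0.70).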

How the results depend on the processing

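The count of actin genes called at 11 d (0) was 1 with the dimmest 33.3% of probe sets left out, 1 with that and the replicate block, 1 with arrays scaled to one trimmed mean, 1 at an adjusted p of 0.10, and 0 to 1 with single arrays left out, also with those out (a set added after seeing the data). The 1 was tmsb each time, and without sham replicate 2 its adjusted p was 0.019. With array weights it was 5 (actb1, actb2, tmsb, tmsb5 and actn1), where 8.02% of all probe sets were called and replicate 1 at 11 d weighed 4.66 in the transected and 5.44 in the sham group, against 0.29 for each replicate 3. With array weights the average over times gave 1 (0.471% of all) and the F test over times 1 (0.806% of all). The count over the sham groups (1, flna) was 0 with the dimmest 33.3% out, 0 with a floor of 1 (adjusted p = 0.26), 0 on the deposited scale (adjusted p = 0.35), 0 to 1 with single arrays left out and 8 with array weights (13.6% of all). The deposited scale keeps sham replicate 3 at 4 h at its lower intensity. The replicate block alone left the injury counts at 0 for each time, the average and the F test over times, and changed no other call; tmsb then had an adjusted p of 0.17 at 11 d. The median at 4 h was 0 to 0.0602 with single arrays left out, the highest without sham replicate 3. With single arrays left out ppp1r12a lay between -0.35 (without transected replicate 3) and 0.93 at 11 d. The cause of these changes was not tested. The counts at 4 h and 12 h were 0 under all 29 settings. Of 839 effects of single genes under other settings, 819 kept their side of the threshold and, where they have one, their direction. Of these effects only the sham test of flna passed in the fit reported here, so this count says little. Sizes could still move, as for tpm4a at 4 h (0.43 to 1.26). The sham test has no value under the block, since times are nested in it, and filters that drop members give no median over all 39. Having 3 arrays per group, and signals near the floor for 9 members under a mean of 32, limit what could be called.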
